A study of Mus musculus with 30 samples.

Results

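The genes described here encode the proteins of the cytosolic and the mitochondrial ribosome, measured on Affymetrix MG-U74Av2 arrays in the olfactory epithelium of mice, the odour-sensing lining of the nose, in which sensory neurons stand between supporting cells and are replaced by basal stem cells. Members were all probe sets annotated to exactly 1 gene whose symbol begins with Rpl or Rps (large and small subunit of the cytosolic ribosome) or with Mrpl or Mrps (large and small subunit of the mitochondrial ribosome), with the Rps6k kinases left out. The rule found 125 probe sets for 96 genes among the 10833 probe sets with 1 gene on an array of 12488. Of these, 49 probe sets for 35 genes were cytosolic and 76 probe sets for 61 genes were mitochondrial.

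The mice were 6 weeks old and were labelled either SR-A mutant (SR-A, the product of Msr1, is a scavenger receptor of macrophages) or wild type. Both olfactory bulbs had been removed, which cuts off the sensory neurons from their target, and tissue was taken at 0, 2, 8, 16 and 48 h. Each genotype and time had 3 arrays, 30 in all, from microdissected tissue. The labels give neither the allele of the mutant nor its strain, and leave unsaid if the animals of 0 h had surgery. Nor do they tie each array to its own mouse, so a p-value here speaks of the variation among arrays, some of which may be technical.

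A ribosome consists of a small subunit that reads the mRNA and a large subunit that joins amino acids, and each subunit holds ribosomal RNA and many proteins that are needed in equal numbers. Cytosolic ribosomes make almost all cell proteins, and many of their protein mRNAs begin with a C followed by a run of C and T, through which growth signals control their translation. Mitochondrial ribosomes make only the few respiratory chain subunits encoded in mitochondrial DNA, although their proteins are all encoded in the nucleus.

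Before the results, 3 facts of the whole series bear on them. The SR-A mutant 2 h arrays stood apart in the GAPDH control, whose 3' minus 5' signal is a measure of RNA integrity. It was 5.59, 0.15 and 1.27 on the log2 scale in their replicates 1, 2 and 3, against -0.31 to -0.13 in the other 27 arrays. The actin control gave 2.27, 1.02 and 0.43, against 0.45 to 1.11 in the other 27. Only replicate 1 thus read above the other arrays on both controls. Because of the GAPDH values all 3 were left out of the genotype comparison over time, which used 0, 8, 16 and 48 h with 12 arrays per genotype. The brighter of the Msr1 probe sets read 297.5 to 548.5 in those SR-A mutant arrays and 32.6 to 295.1 in the wild type arrays. The other read 188.0 to 347.5 and 45.7 to 184.1, and neither passed the filter on low signals used below. Both were thus higher in every one of those arrays labelled SR-A mutant. The labels do not state the lesion or whether these probe sets lie inside it, so the signals do not check them, and SR-A mutant below means labelled as such. Markers of the tissue were present, with Omp, the olfactory marker protein of mature sensory neurons, at 35807.3, 36515.7 and 32772.4 in SR-A mutant and 29997.1, 31604.6 and 27105.5 in wild type arrays at 0 h.

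Values are MAS5 signals, which are linear intensities. Signals of different probe sets depend on their oligonucleotides and were not compared as amounts of RNA. Differences are log2 differences of group means ± standard error from a limma fit of all 10 groups, with p-values adjusted by Benjamini-Hochberg over 6968 tested probe sets, and a gene was called at an adjusted p under 0.05. A gene on several probe sets is represented by the one with the highest mean signal. Passing the filter on low signals were 80 of the 96 genes, 24 of them cytosolic and 56 mitochondrial. The 11 cytosolic genes not tested were Rpl32, Rpl35a, Rpl38, Rpl39, Rpl39l, Rps13, Rps14, Rps15, Rps20, Rps27l and Rps29, and the 5 mitochondrial ones were Mrpl14, Mrpl42, Mrpl49, Mrpl55 and Mrps16. Several of these read near background, such as Rps15 at a mean of 64.8 and Rpl39 at 71.0, so the array did not measure them. A fold in bulk tissue cannot tell fewer cells of a type apart from less RNA per cell.

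The brightest members were cytosolic, but the signals of the class spread widely. Among tested genes Rpl41, a very short protein at the interface of the subunits, had a mean signal of 52305, Rps24 one of 42489 and Rps28 one of 37469, while Rps27 lay at 2468, Rpl22 at 2069, Rps4l at 1573, Rpl13a at 990.3 and Rpl7l1, a paralog of Rpl7, at 507.1. Among tested mitochondrial genes the signals ran from 463.4 for Mrps5 to 8530 for Mrpl18 and 7783 for Mrpl52. Probe sets with the suffixes _f, _s or _r can bind several related transcripts, and 15 cytosolic and 11 mitochondrial probe sets carried such a suffix or the suffix _i. Those used for Rpl41, Rps28, Rpl7 and Rps24 were among them, and many ribosomal protein genes have processed pseudogenes, so their signals may include related sequences.

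The DNA around the starts was searched for letters that are known from promoters of ribosomal protein genes. RefSeq promoter windows of the GRCm38.p6 assembly, from 250 bases before to 50 after a start, were found for 28 cytosolic and 54 mitochondrial genes. Starts are those of the annotation and were not measured here. A gene with several windows was counted if any of them held the letters or the run described below. Windows per gene averaged 1.32 for cytosolic, 1.11 for mitochondrial and 1.22 for all genes. The letters CCGGAA, the core bound by ETS factors such as GABPA, occurred on either strand in 60.7% of the cytosolic and 51.9% of the mitochondrial genes, against 16.7% of 27025 genes. AAGATGGC, the core of the YY1 motif, occurred in 17.9% and 18.5%, against 3.19%. The NRF-1 motif occurred in 7.14% and 3.7%, against 1.07%. The 100 bases before the start are printed 5' to 3' on the gene's strand for the cytosolic genes Rps7 and Rps18 and the mitochondrial gene Mrpl51. Each holds the ETS letters more than once, as do Mrpl43 and Mrpl48, which are not printed. None of the 3 motifs was found in the windows of Rps28, Mrpl12, Mrpl20, Mrpl41 and Mrps5, whose values are given below. CCGGAA or its complement TTCCGG is in capitals.
Rps7, chr12:28635954-28636053, minus strand: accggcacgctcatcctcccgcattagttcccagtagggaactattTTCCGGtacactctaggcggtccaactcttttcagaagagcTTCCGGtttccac
Rps18, chr17:33955666-33955765, minus strand: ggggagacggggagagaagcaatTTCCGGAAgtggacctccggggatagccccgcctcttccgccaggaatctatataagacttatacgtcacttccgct
Mrpl51, chr6:125192100-125192199, plus strand: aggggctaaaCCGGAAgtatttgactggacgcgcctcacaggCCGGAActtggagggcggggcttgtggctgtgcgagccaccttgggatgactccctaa
In Rps18 the letters overlap, so that both orientations share bases.

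The start itself was also searched. A run of at least 8 C or T within 10 bases of the start was found in 32.1% of the cytosolic genes (9 of 28) and 9.26% of the mitochondrial genes (5 of 54), against 8.71% of all genes. The letters CTTTC or CTTCC at that place were found in 28.6%, 9.26% and 7.74%. These windows of 30 bases, 15 before the start and 15 after it, carry in capitals the longest run of C and T, as far as it lies within 10 bases of the start. They are shown for the 4 genes of each class with the smallest adjusted p between genotypes over 0, 8, 16 and 48 h, and for Mrpl12, a mitochondrial gene with a run of at least 8.
Rpl19, chr11:98026695-98026724, plus strand: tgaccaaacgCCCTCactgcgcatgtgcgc
Rpl19, chr11:98026909-98026938, plus strand: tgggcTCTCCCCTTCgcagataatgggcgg
Rps28, chr17:33824548-33824577, minus strand: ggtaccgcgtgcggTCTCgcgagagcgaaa
Rps18, chr17:33955651-33955680, minus strand: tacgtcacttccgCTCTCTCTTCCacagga
Rps7, chr12:28635939-28635968, minus strand: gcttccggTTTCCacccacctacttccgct
Mrpl20, chr4:155802863-155802892, plus strand: tgactTTCggaagagctgtcagtgctctta
Mrpl41, chr2:24975084-24975113, minus strand: gggcattgggcgCCCTggtgaccagtcggc
Mrpl51, chr6:125192185-125192214, plus strand: gggatgaCTCCCTaagctacctgggtaagg
Mrps5, chr2:127587411-127587440, plus strand: gctgctccggCTCCagcatggcggcggccg
Mrpl12, chr11:120484622-120484651, plus strand: agctcgCCTCCTCCCggatagagcgtcgct
The table gives 2 windows for Rpl19, and both are shown. A run of at least 8 stands in Rps18, Mrpl12 and 1 of the Rpl19 windows, and in none of the others shown. A match of letters describes the sequence and is not a binding site.

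The mean log2 signal of the 24 cytosolic genes had a larger mean in SR-A mutant than in wild type tissue at every time in the deposited values, with overlapping arrays at 2 h. That of the 56 mitochondrial genes did not overlap between genotypes at 0 h, at 10.72 to 10.87 in SR-A mutant and 10.64 to 10.71 in wild type arrays, and overlapped at 2, 8, 16 and 48 h. Cytosolic means at 0, 2, 8, 16 and 48 h were 13.78 ± 0.05, 13.71 ± 0.10, 13.73 ± 0.05, 13.82 ± 0.03 and 13.76 ± 0.10 in SR-A mutant tissue. In wild type tissue they were 13.51 ± 0.07, 13.65 ± 0.01, 13.59 ± 0.08, 13.59 ± 0.02 and 13.59 ± 0.07 (SD, n = 3 each). Over 0, 8, 16 and 48 h the 12 SR-A mutant arrays lay at 13.69 to 13.87 and the 12 wild type arrays at 13.44 to 13.67, so that the genotypes did not overlap. After quantile normalization the cytosolic means over these times overlapped, at 13.64 to 13.74 in SR-A mutant and 13.56 to 13.69 in wild type arrays. Taken by time they overlapped at 2, 8 and 48 h. They did not at 0 h, with 13.70 to 13.73 in SR-A mutant and 13.56 to 13.65 in wild type arrays. Nor did they at 16 h, with 13.70 to 13.72 and 13.61 to 13.66. In the deposited scaling the mitochondrial mean was 10.65 to 10.87 in the same SR-A mutant arrays and 10.63 to 10.82 in the wild type arrays, with broad overlap. After quantile normalization it was 10.65 to 10.90 and 10.58 to 10.80. The medians of these arrays were then 10.76 and 10.69 for the mitochondrial mean, and 13.71 and 13.64 for the cytosolic mean. At 0 h the quantile-normalized mitochondrial means did not overlap, at 10.74 to 10.90 in SR-A mutant and 10.58 to 10.68 in wild type arrays. They overlapped at 2, 8, 16 and 48 h.

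The distance between the classes followed from this. The cytosolic minus the mitochondrial mean was 2.99 ± 0.03, 2.86 ± 0.02, 3.01 ± 0.08, 3.02 ± 0.01 and 3.06 ± 0.14 in SR-A mutant tissue at 0, 2, 8, 16 and 48 h. It was 2.83 ± 0.08, 2.81 ± 0.02, 2.85 ± 0.10, 2.80 ± 0.02 and 2.92 ± 0.09 in wild type tissue. Only differences between groups can be read from it, since its size depends on the probes. After quantile normalization, which gives every array the same distribution of signals, the distance was 2.91, 2.81, 2.97, 2.89 and 2.96 in SR-A mutant tissue against 2.97, 2.88, 2.93, 2.86 and 3.00 in wild type tissue. The mean distance was thus larger in SR-A mutant tissue at 5 of 5 times in the deposited scaling and at 2 of 5, 8 and 16 h, after quantile normalization.

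**Figure D1:**
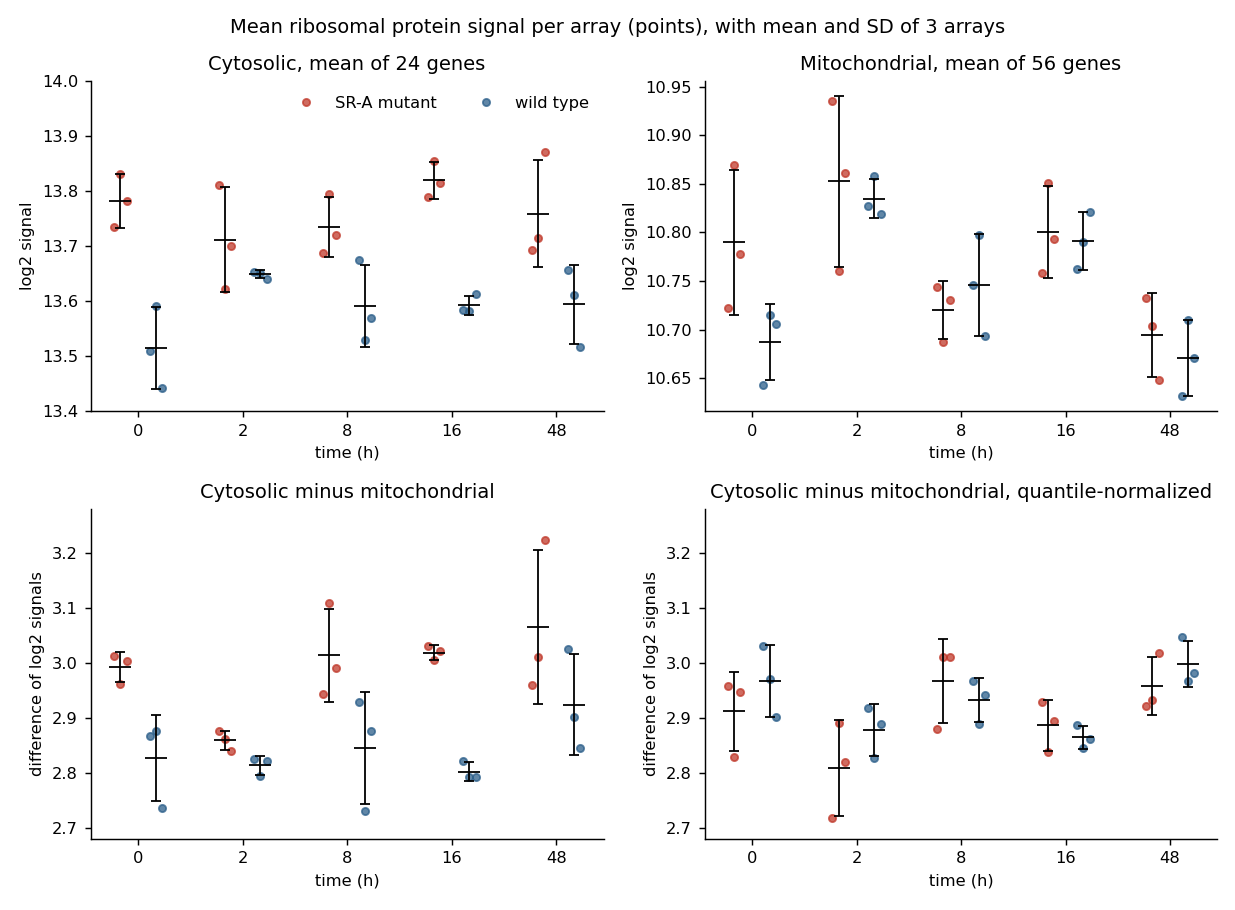
Mean log2 signal of the 24 cytosolic and 56 mitochondrial genes in each array (points), by time in hours on the horizontal axis, and their difference before and after quantile normalization, with the mean and SD of 3 arrays as black marks. In the deposited scaling the cytosolic points of SR-A mutant arrays at 0, 8, 16 and 48 h lie at 13.69 to 13.87, above the wild type points at 13.44 to 13.67, while the quantile-normalized distances of the genotypes overlap.

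The genotype comparison over 0, 8, 16 and 48 h tests the mean of the differences between SR-A mutant and wild type tissue at these times. A member that differed at only some of the times can therefore be called. In it, 15 of the 24 cytosolic genes were higher in SR-A mutant tissue and 0 were lower, with a median difference of 0.19. Over all 5396 genes tested, 15.5% were called higher and 21.5% lower (37.0% in either direction), with a median of -0.03. Of the 15 called genes, 7 belonged to the large and 8 to the small subunit. Without any call, the difference was positive in 21 of 24 cytosolic genes. Of the 56 mitochondrial genes, 12 were higher and 8 lower, with a median of 0.04 and a positive difference in 31.

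In the large subunit, Rpl19, which takes part in a bridge between the subunits (chr11:98022003-98030493), had signals of 27244.2, 30484.6 and 25193.7 in SR-A mutant tissue at 0 h, against 18292.6, 20543.9 and 18531.9 in wild type tissue. At 16 h the signals of Rpl19 were 30098.9, 29747.3 and 30683.0 in SR-A mutant and 24049.7, 24620.2 and 23009.7 in wild type tissue. The 12 SR-A mutant arrays at 25193.7 to 30683.0 all exceeded the 12 wild type arrays at 18292.6 to 24829.6, a log2 difference of 0.41 ± 0.04 (limma, adjusted p = 4.07e-07). Rpl6 differed by 0.34 ± 0.05, with a median of 22300.85 (20543.1 to 28932.0) in SR-A mutant and 18378.4 (16738.0 to 21029.8) in wild type arrays, which overlapped. Rpl8, near the site where peptide bonds form, differed by 0.35 ± 0.06. Rplp0, the base of the stalk that recruits elongation factors, differed by 0.18 ± 0.04 (adjusted p = 0.0017).

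In the small subunit, Rps18 (chr17:33951998-33955665) read 29915.5 to 37956.1, with a median of 32976.75, in SR-A mutant arrays and 22923.2 to 28514.6, with a median of 26152.05, in wild type arrays. The arrays of the genotypes did not overlap, and the difference was 0.37 ± 0.05 (adjusted p = 4.96e-06). Rps28, mutated in some patients with Diamond-Blackfan anaemia (chr17:33823036-33824562), read 35917.8 to 53271.4 in SR-A mutant and 30417.3 to 35743.7 in wild type arrays, again without overlap, a difference of 0.40 ± 0.05 (adjusted p = 1.84e-06). Its second probe set, with the plain suffix, gave 0.19 (adjusted p = 0.0031). Rps7 (chr12:28630847-28635953) had the largest cytosolic difference, 0.44 ± 0.06 (adjusted p = 1.19e-05), from 24064.5 to 32612.6 in SR-A mutant and 16998.9 to 24733.6 in wild type arrays, which overlapped. Rps3, at the mRNA entry channel, and Rps3a1 differed by 0.31 ± 0.05 and 0.30 ± 0.05, each without overlap of the arrays. Rpsa, known also as the laminin receptor precursor, differed by 0.20 ± 0.05.

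**Figure D2:**
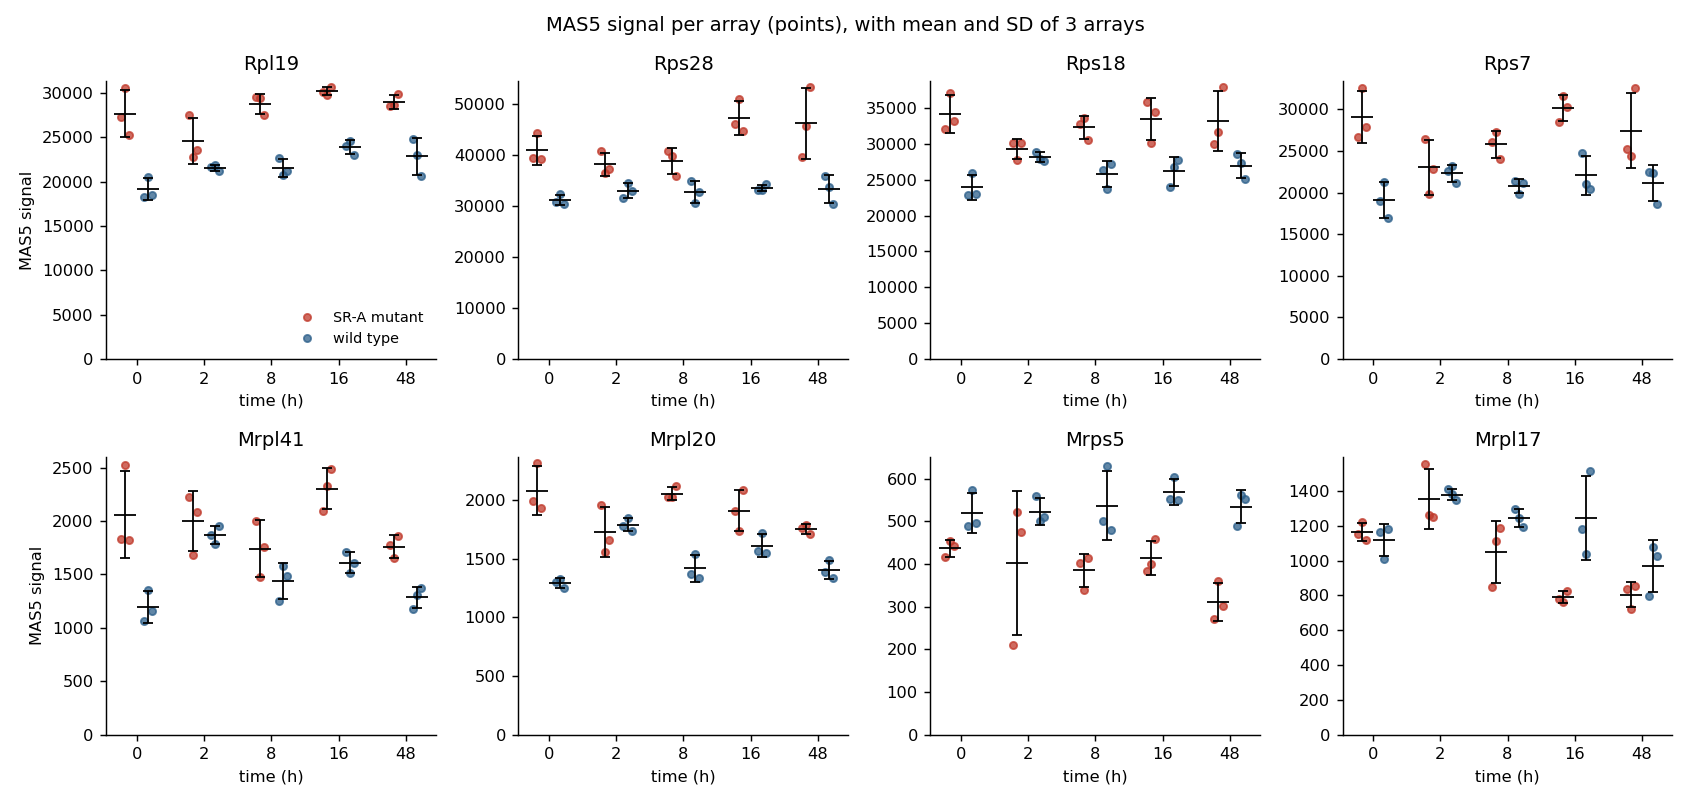
MAS5 signal (vertical axis, starting at 0) of 4 cytosolic genes and 4 mitochondrial genes in each array, by time in hours, with the mean and SD of 3 arrays as black marks. Rpl19, Rps28 and Rps18 are higher in SR-A mutant tissue in all arrays at 0, 8, 16 and 48 h, Mrpl41 and Mrpl20 have higher means in it, and Mrps5 lies at 271.5 to 459.9 in those SR-A mutant arrays against 480.3 to 630.5 in wild type arrays.

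Measures of the whole array moved with genotype as the cytosolic genes did. The 99th percentile of all signals was 21315 to 24575 in the 12 SR-A mutant arrays and 19128 to 21770 in the 12 wild type arrays, although the trimmed mean of every array had been set alike. Rpl41 read at least 41317.9 in every array, so members lie among the signals above this percentile. The percentile and the cytosolic genes are therefore not independent measures, and quantile normalization sets that same high end alike. The highest signal of an array was 52880 to 91054 in SR-A mutant and 44632 to 56563 in wild type arrays. The control probe set for the 3' end of 18S rRNA read 1322.2 to 7009.4 in SR-A mutant and 421.1 to 1070.1 in wild type arrays, without overlap. Over the 80 members, Pearson's r of the genotype difference with the log2 mean signal was 0.53 (Spearman's rho 0.49), and r fell to -0.03 after quantile normalization. Within the classes r went from 0.49 to -0.33 in the 24 cytosolic genes and from 0.33 to 0.16 in the 56 mitochondrial genes. These points share the same 24 arrays and their scaling, and r is given as a description. After quantile normalization 8 cytosolic genes were called higher and 1 lower, with a median of 0.11: Rps7 differed by 0.26 (adjusted p = 0.000209), Rpl19 by 0.21 (adjusted p = 0.000142), Rps18 by 0.17, Rpl8 by 0.17, Rpsa by 0.16, Rpl6 by 0.15, Rps3 by 0.13 and Rps28 by 0.13. In the same values Rpl7, called higher in the deposited scaling at 0.10 (adjusted p = 0.0376), was called lower at -0.12 (adjusted p = 0.0128), and the differences of Rplp0, Rps24 and Rps4x turned to -0.04, -0.08 and -0.11. For these 4 genes the direction itself depends on the scaling, the calls of Rpl41, Rpl10a and Rps3a1 were lost, and in the other 8 called cytosolic genes the size changed. The part of the high end of the signal scale in these differences was not tested. No share of all genes called after quantile normalization is given here. Counts of called members after it, here and below, are therefore not read as a result about either class.

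**Figure D3:**
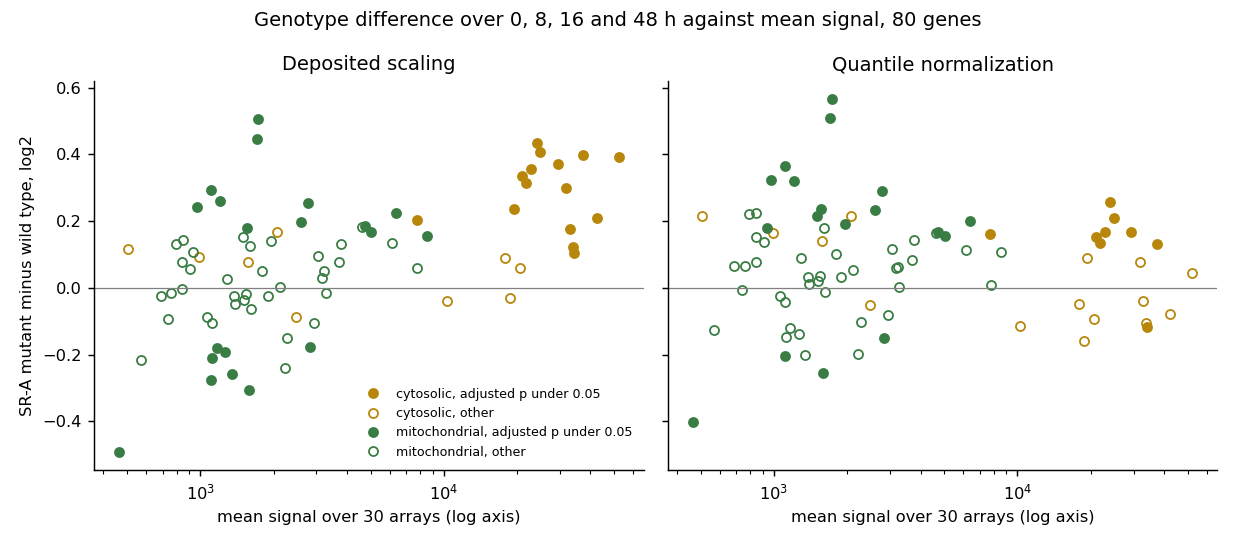
Log2 difference of SR-A mutant minus wild type over 0, 8, 16 and 48 h (vertical axis) of each of the 80 tested genes against its mean signal over 30 arrays (log axis), in the deposited scaling and after quantile normalization, with filled points at an adjusted p under 0.05. Filled cytosolic points lie above 0 in the deposited scaling, and r over the 80 genes is 0.53 there and -0.03 after quantile normalization.

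Among the mitochondrial genes, 8 of the 36 large subunit genes were higher and 6 lower, and 4 of the 20 small subunit genes were higher and 2 lower. Of all genes 15.5% were called higher and 21.5% lower, so nothing is read from these counts about the class. Mrpl41 (chr2:24972470-24975098) had signals of 1830.4, 2526.6 and 1821.9 in SR-A mutant tissue at 0 h, against 1063.3, 1356.3 and 1154.4 in wild type tissue, with no overlap. Over 0, 8, 16 and 48 h it differed by 0.51 ± 0.07 (adjusted p = 6.92e-06), from 1471.8 to 2526.6 in SR-A mutant and 1063.3 to 1712.1 in wild type arrays. Mrpl20 (chr4:155802878-155808831) had 1989.8, 2316.3 and 1936.7 in SR-A mutant tissue at 0 h and 1306.3, 1326.5 and 1248.0 in wild type tissue, and its difference over these times was 0.45 ± 0.05 (adjusted p = 3.17e-07). Its arrays overlapped only narrowly, at 1710.5 to 2316.3 in SR-A mutant and 1248.0 to 1722.7 in wild type tissue. Mrpl12, which also binds the mitochondrial RNA polymerase, was higher by 0.29 ± 0.06 (adjusted p = 0.000831), Mrps28 by 0.26 ± 0.06, Mrps31 by 0.26 ± 0.07 and Mrpl51 by 0.23 ± 0.04.

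Lower in SR-A mutant tissue was above all Mrps5 (chr2:127587426-127603986), a small subunit protein whose signals are the dimmest of the tested members. It had 271.5, 360.1 and 302.5 in SR-A mutant tissue at 48 h and 490.0, 561.1 and 551.7 in wild type tissue. Over 0, 8, 16 and 48 h all 12 SR-A mutant arrays, at 271.5 to 459.9, lay below the 12 wild type arrays, at 480.3 to 630.5, and the difference was -0.49 ± 0.10 (adjusted p = 0.0007). Mrpl3 was lower by -0.30 ± 0.07 (adjusted p = 0.0014), Mrpl17 by -0.28 ± 0.07 and Mrps7, of the head of the small subunit, by -0.26 ± 0.09, and these arrays overlapped. After quantile normalization Mrpl41 differed by 0.57, Mrpl20 by 0.51, Mrpl12 by 0.36 and Mrps5 by -0.40. In the same values 14 mitochondrial genes were called higher and 4 lower, which is not read as a result about the class. Leaving out 1 array in turn kept 28 of the 35 called genes of both classes in every omission. Those lost in some omission were Rps4x, Rpl7, Mrpl18, Mrps7, Mrps12, Mrpl11 and Mrpl16.

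The sign of the genotype difference was compared over the separate times. In 15 of 24 cytosolic genes (62.5%) the difference was positive at each of 0, 8, 16 and 48 h, against 16 of 56 mitochondrial genes (28.6%) and 15.4% of all genes. It was negative at each time in 0 cytosolic genes, in 7 mitochondrial genes (12.5%) and in 20.5% of all genes. The 7 were Mrpl2, Mrpl3, Mrpl9, Mrpl28, Mrpl48, Mrps2 and Mrps5. After quantile normalization the positive counts were 10 (41.7%) and 20 (35.7%), against 17.8% of all genes, and the negative counts were 4 (16.7%) and 3 (5.36%), against 16.7%. The times are not independent repeats of the scaling, and the shares carry no test.

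At 0 h, 11 cytosolic genes were higher and 0 lower in SR-A mutant tissue, with a median of 0.29, and 8 mitochondrial genes were higher and 3 lower, with a median of 0.13. Over all genes 17.4% were called, 7.47% higher and 9.91% lower. Rps7 led the cytosolic genes with 0.61 ± 0.12 (adjusted p = 0.00216), from 26671.3, 32593.3 and 27929.6 in SR-A mutant and 18959.0, 21317.4 and 16998.9 in wild type arrays. Rpl19 followed with 0.53 ± 0.09, Rps18 with 0.51 ± 0.10 and Rpl8 with 0.42 ± 0.11. Mrpl41 differed by 0.78 ± 0.14, Mrpl20 by 0.68 ± 0.09, Mrps28 by 0.56 ± 0.12 and Mrps12, of the decoding centre of the small subunit, by 0.54 ± 0.13. Mrpl3 was lower at 0 h by -0.56 ± 0.14 (adjusted p = 0.008), from 1345.7, 1627.0 and 1119.7 in SR-A mutant and 2055.0, 1828.3 and 2093.7 in wild type arrays, but its adjusted p was 0.0585 without SR-A mutant replicate 3. Of the 22 calls, 8 held in every omission of 1 array: Rps7, Rpl19, Rps18, Mrpl20, Mrpl41, Mrpl48, Mrps12 and Mrps28. The count was 11 without SR-A mutant replicate 2, 14 without SR-A mutant replicate 3 and 11 without wild type replicate 3. After quantile normalization 13 members were called at 0 h, 3 of them cytosolic.

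At 2 h, where the SR-A mutant arrays stand apart in the GAPDH control, 1 member was called against 7.84% of all genes (1.76% higher and 6.08% lower). Mrpl34 was lower by -0.51 ± 0.15 (limma, adjusted p = 0.0341), with 1066.9, 1188.7 and 1100.8 in SR-A mutant and 1644.8, 1560.4 and 1578.8 in wild type arrays. The call of Mrpl34 was lost in 5 of 6 omissions, all but that of SR-A mutant replicate 2. Without SR-A mutant replicate 1 or any 1 wild type array 0 members were called, without SR-A mutant replicate 2 there were 6 and without replicate 3 there were 4. At 8 h, 1 cytosolic and 2 mitochondrial genes were higher and 0 were lower, against 2.59% of all genes (1.3% higher and 1.3% lower). Mrpl20 had 2022.5, 2023.5 and 2116.5 in SR-A mutant and 1372.5, 1543.6 and 1335.6 in wild type arrays, a difference of 0.54 ± 0.09 (adjusted p = 0.00302) that held in every omission. Rpl19 differed by 0.42 ± 0.09 (adjusted p = 0.012), which was lost without SR-A mutant replicate 2 or wild type replicate 3, leaving 1 call at 8 h in each case.

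At 16 h, 9 cytosolic genes were higher and 0 lower, with a median of 0.23, while 2 mitochondrial genes were higher and 1 lower, with a median of 0.02. Of all genes 8.19% were called, 3.24% higher and 4.95% lower. Rps28 differed by 0.49 ± 0.10 (adjusted p = 0.00387), Rpl6 by 0.45 ± 0.10, Rps7 by 0.45 ± 0.12 and Rpl41 by 0.44 ± 0.13. Mrpl17 had 777.3, 764.4 and 827.0 in SR-A mutant and 1181.4, 1038.8 and 1511.6 in wild type arrays, and its difference of -0.64 ± 0.14 (adjusted p = 0.00642) had an adjusted p of 0.0552 without wild type replicate 3. Mrpl51 was higher by 0.37 ± 0.09, from 8184.6, 7261.5 and 7804.8 in SR-A mutant and 6102.3, 5940.1 and 5875.0 in wild type arrays. Rps28 alone of the 12 calls held in every omission: 4 members were called without SR-A mutant replicate 2, 6 without SR-A mutant replicate 3, 7 without wild type replicate 2 and 2 without wild type replicate 3. With quantile normalization 3 were called, 0 of them cytosolic.

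At 48 h, 7 cytosolic genes were higher and 1 lower, with a median of 0.22, and 4 mitochondrial genes were higher and 1 lower, with a median of -0.00. Of all genes 16.3% were called, 7.36% higher and 8.99% lower. The shares called higher were 29.2% of the cytosolic and 7.14% of the mitochondrial genes. Rps28 differed by 0.46 ± 0.10 (adjusted p = 0.00236) and Mrps5 by -0.79 ± 0.21 (adjusted p = 0.0109), and these 2 calls of 13 held in every omission. Rps19, a small subunit protein needed for the maturation of its RNA and mutated in Diamond-Blackfan anaemia, was the gene called lower: it had 15398.6, 18694.4 and 9943.0 in SR-A mutant and 20145.2, 18967.8 and 19840.5 in wild type arrays, a difference of -0.47 ± 0.15 (adjusted p = 0.0392). Without SR-A mutant replicate 3, the lowest array, the difference of Rps19 was -0.21 (adjusted p = 0.301). Mrps31 was higher by 0.43 ± 0.13, from 2903.6, 2569.7 and 2645.6 in SR-A mutant and 1928.3, 1740.8 and 2414.4 in wild type arrays. The count was 5 without SR-A mutant replicate 3, 7 without wild type replicate 1, 6 without wild type replicate 2 and 5 without wild type replicate 3. With quantile normalization 6 members were called, of which Rps19, at -0.54, was the single cytosolic one.

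**Figure D4:**
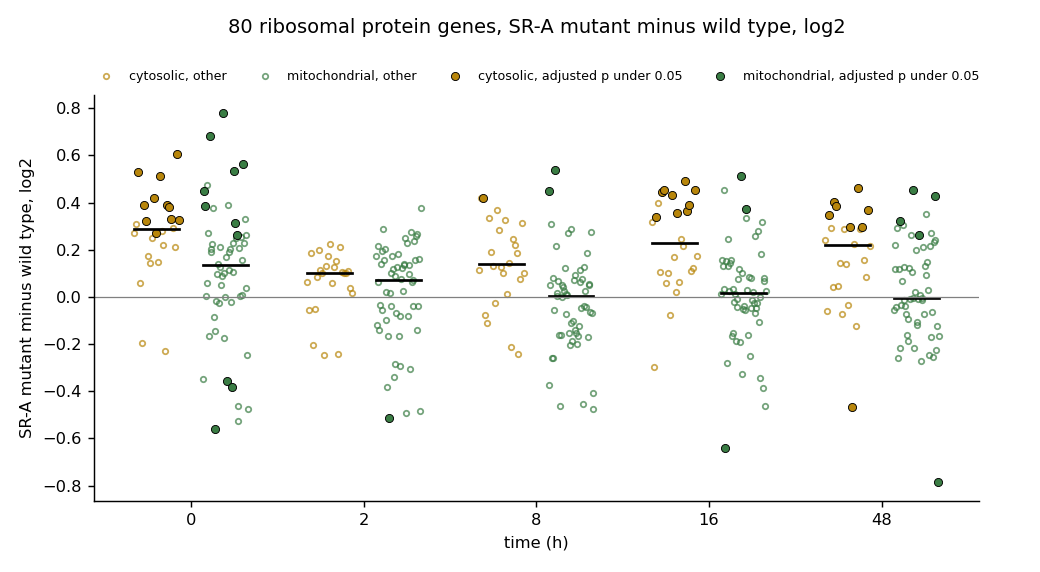
Log2 difference of SR-A mutant minus wild type (vertical axis) of each of the 80 genes at each time in hours, cytosolic genes left of mitochondrial genes, with black lines at the medians and filled points at an adjusted p under 0.05. Cytosolic medians are 0.29, 0.10, 0.14, 0.23 and 0.22 at 0, 2, 8, 16 and 48 h, and mitochondrial medians are 0.13, 0.07, 0.00, 0.02 and -0.00.

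After bulbectomy few members changed within a genotype. No member's group means spanned over 1 on the log2 scale across the 9 groups other than SR-A mutant 2 h (0 of 80). The 4 comparisons within a genotype share their 0 h arrays, so that an unusual 0 h array enters all of them. Of the calls within genotypes, 0 held in every omission of 1 array.

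In SR-A mutant tissue, 6 mitochondrial genes were higher and 2 lower at 2 h and no cytosolic gene was called (limma; 4 cytosolic genes had an unadjusted p under 0.05), against 16.5% of all genes, 7.58% higher and 8.95% lower. Mrps7 had 2085.5, 1995.4 and 1354.1 at 2 h and 1044.8, 1349.7 and 1083.2 at 0 h, a change of 0.63 ± 0.18 (adjusted p = 0.0178). Mrps2 changed by 0.58 ± 0.20, and Mrpl9 by 0.41 ± 0.12. Mrpl58, a hydrolase that frees stalled peptides, changed by 0.41 ± 0.14. Mrpl4 fell to 1598.7, 2903.0 and 3211.9 at 2 h, against 3315.2, 3311.8 and 3320.1 at 0 h (-0.43 ± 0.15), and replicate 1, whose GAPDH 3' minus 5' signal was 5.59, was the lowest. At 2 h 2 members were called without replicate 1 of either time, 4 without 0 h replicate 2 or 3, and 14 without 2 h replicate 2. At 8 h 0 members were called by limma, against 1.98% of all genes (1.32% higher and 0.667% lower), with 0 cytosolic and 7 mitochondrial genes at an unadjusted p under 0.05.

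At 16 h in SR-A mutant tissue 1 mitochondrial gene was higher and 2 were lower, against 4.02% of all genes (2.08% higher and 1.95% lower). Mrps22 had 947.0, 1405.7 and 1191.4 at 16 h and 617.2, 854.0 and 660.3 at 0 h, a change of 0.73 ± 0.20 (adjusted p = 0.0454), and Mrpl17 changed by -0.56 ± 0.14 and Mrpl43 by -0.46 ± 0.13. Leaving out any 1 array left 0 or 1 of these calls. At 48 h 2 cytosolic and 4 mitochondrial genes were lower and none was higher, against 10.2% of all genes (5.08% higher and 5.17% lower). Rpl13a, a large subunit protein known in human myeloid cells also as a translational repressor, fell to 678.7, 903.9 and 533.2 at 48 h, against 1033.3, 1214.4 and 1303.0 at 0 h, without overlap (-0.77 ± 0.18, adjusted p = 0.00937). Its adjusted p was 0.0737 without 48 h replicate 3. Rps19 had 15398.6, 18694.4 and 9943.0 at 48 h and 18242.2, 21486.8 and 22871.0 at 0 h, which overlapped (-0.55 ± 0.15, adjusted p = 0.0255), and without 48 h replicate 3 the change of Rps19 was -0.29 (adjusted p = 0.194). Mrpl17 changed by -0.54 ± 0.14, Mrpl12 by -0.44 ± 0.13, Mrpl54 by -0.38 ± 0.11 and Mrpl46 by -0.36 ± 0.12. The count of 6 was 2 without 0 h replicate 2 or without 48 h replicate 2 or 3, and 9 without 48 h replicate 1.

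In wild type tissue, 2 mitochondrial genes were higher at 2 h, against 0.686% of all genes (0.519% higher and 0.167% lower). Mrpl41 had 1870.0, 1780.4 and 1948.3 at 2 h and 1063.3, 1356.3 and 1154.4 at 0 h, a change of 0.65 ± 0.14 (adjusted p = 0.0386). Mrpl20 had 1777.5, 1851.1 and 1739.8 at 2 h and 1306.3, 1326.5 and 1248.0 at 0 h, a change of 0.47 ± 0.09 (adjusted p = 0.0295). The groups of both genes did not overlap, but both calls were lost in 5 of 6 omissions of 1 array. The medians of both classes stood above that of all genes at 2 h, at 0.13 for cytosolic and 0.19 for mitochondrial genes against -0.02, with 5 and 18 genes at an unadjusted p under 0.05. At 8 h 0 members were called by limma, against 0.185% of all genes (0.167% higher and 0.0185% lower), with 0 cytosolic and 1 mitochondrial gene at an unadjusted p under 0.05.

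At 16 h in wild type tissue 2 cytosolic genes were higher and 1 lower and 2 mitochondrial genes were higher, against 6.41% of all genes (3.52% higher and 2.89% lower). Rpl7l1, which takes part in making the large subunit, had 573.0, 566.8 and 635.5 at 16 h, 517.5, 650.6 and 556.3 at 48 h and 295.8, 452.6 and 402.9 at 0 h. Its changes were 0.65 ± 0.20 at 16 h, with an adjusted p of 0.047, and 0.60 ± 0.20 at 48 h, with an adjusted p of 0.0399. Rpl37a had 9077.5, 9235.4 and 8900.4 at 16 h and 14931.3, 11585.8 and 11180.9 at 0 h, a change of -0.46 ± 0.13 (adjusted p = 0.0307), and changed by -0.40 ± 0.13 at 48 h. Rpl19 changed by 0.32 ± 0.09, Mrpl20 by 0.32 ± 0.09 and Mrps17 by 0.29 ± 0.08 at 16 h. At 16 h 0 members were called without 0 h replicate 1 or without any 1 of the 16 h arrays, and 1 without 0 h replicate 3. At 48 h 2 cytosolic genes were higher and 1 lower and 2 mitochondrial genes were lower, against 15.4% of all genes (8.15% higher and 7.25% lower). Rplp0 changed by 0.29 ± 0.08, Mrps31 by -0.46 ± 0.13 and Mrpl9 by -0.35 ± 0.12. The count of 5 at 48 h was 2 without 0 h replicate 1 or 3 or without 48 h replicate 1, and 1 without 48 h replicate 2.

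**Figure D5:**
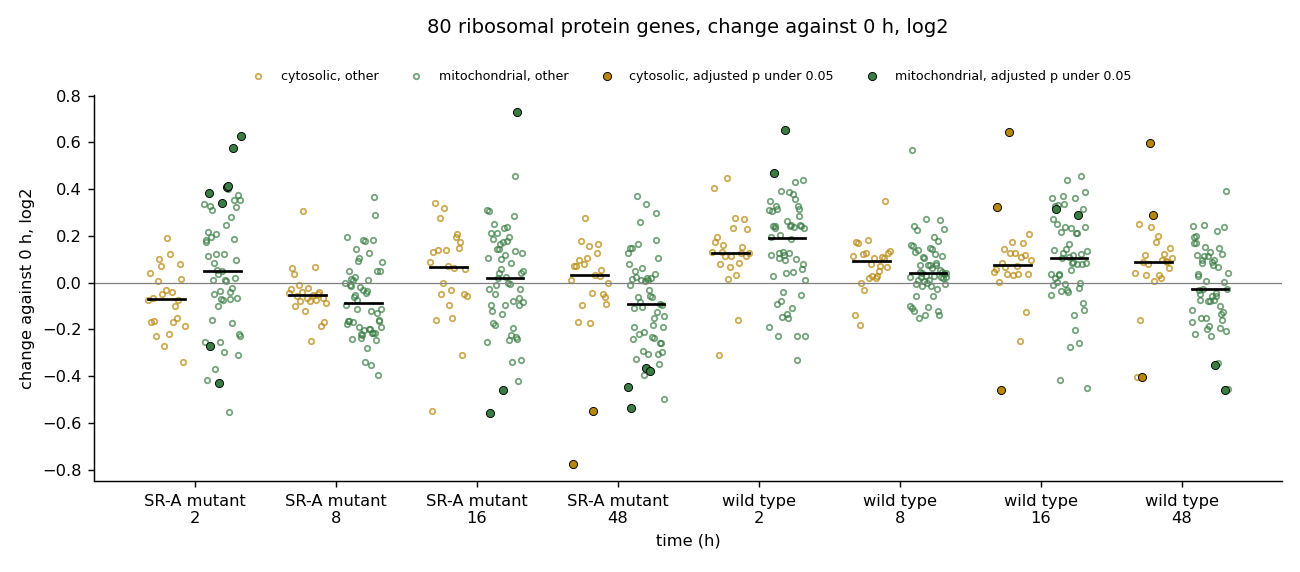
Log2 change against 0 h (vertical axis) of each of the 80 genes at 2, 8, 16 and 48 h in SR-A mutant and in wild type tissue, cytosolic genes left of mitochondrial genes, with black lines at the medians and filled points at an adjusted p under 0.05. Medians lie between -0.09 and 0.19, and filled points are few in every comparison.

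Whether the change from 0 h differed between genotypes was tested at 16 and 48 h as an interaction in limma. At 16 h 0 members were called, against 0.13% of all genes, with 2 cytosolic and 10 mitochondrial genes at an unadjusted p under 0.05. Mrpl17, with a difference of -0.70, and Mrpl20, with -0.44, had the smallest adjusted p, 0.0983 and 0.118. At 48 h 0 members were called, against 3.06% of all genes (1.09% higher and 1.96% lower), with 1 cytosolic and 7 mitochondrial genes at an unadjusted p under 0.05. Rps19 came nearest, with a difference of -0.75 ± 0.22 (adjusted p = 0.0616), and its adjusted p was 0.0456 in a fit with a variance trend.

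Many cytosolic members varied together from array to array within the groups, and fewer mitochondrial members did. Within groups over the 27 arrays other than SR-A mutant 2 h, the median correlation of a gene with the mean of the rest of its class was 0.60 for the 24 cytosolic genes, of which 16 exceeded 0.5. For the 56 mitochondrial genes the median was 0.22, and 9 exceeded 0.5. With the other class the medians were -0.01 and -0.07. Rplp0 had 0.84, Rps24 0.83, Rpl41 0.81 and Rps3 0.80, whereas Rps19 had -0.47, Rps4l -0.14 and Rpl13a -0.07. Highest among mitochondrial genes were Mrps15 at 0.70, Mrpl21 at 0.69 and Mrps25 at 0.67, and lowest Mrps18a at -0.32 and Mrpl3 at -0.24. These points share arrays and scaling, which also move bright probe sets together, and the correlations are a description. The median within-group SD was 0.109 for cytosolic and 0.143 for mitochondrial genes, against 0.174 for all genes, on the log2 scale.

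Over the same 27 arrays the most variable cytosolic genes were Rpl13a, with an SD of 0.36, and Rpl7l1, with 0.29, and the steadiest were Rps10 with 0.08 and Rpl7 with 0.09. Among mitochondrial genes Mrps22 at 0.34 and Mrpl41 at 0.33 varied most, and Mrpl4 at 0.07 and Mrpl52 at 0.10 least. In Mrpl4 the signal stood at 3315.2, 3311.8 and 3320.1 in SR-A mutant and 3234.8, 3155.0 and 3210.3 in wild type arrays at 0 h, and at 3386.6, 3663.5 and 3344.9 in SR-A mutant and 3353.1, 3096.2 and 3210.6 in wild type arrays at 48 h.

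Second probe sets did not always follow the first. Of 22 genes on several probe sets, 10 had more than 1 tested. The dimmer probe set of Rpl19 gave -0.56 (adjusted p = 0.052) for the genotype difference over 0, 8, 16 and 48 h, and -1.90 at 8 h (adjusted p = 0.025), opposite to the bright one. Its signals spread from 177.6 to 996.0 in SR-A mutant and 240.9 to 1371.1 in wild type arrays. Rpl10a was higher by 0.24 on its bright probe set and lower by -0.22 (adjusted p = 0.0015) on one with the suffix _f. Rpl22 was not called on its bright probe set and was lower by -0.46 (adjusted p = 0.017) on the dimmer one. Mrps18a, Mrpl45 and Mrpl50 were called higher, by 0.43, 0.28 and 0.22, only on probe sets that did not represent them. A further 44 probe sets were annotated to several genes that include a ribosomal protein, and 39 of these were tested and are not named. Over 0, 8, 16 and 48 h, 23 of the 39 were called higher and 5 lower in SR-A mutant tissue, with a median of 0.22. Of all genes 15.5% were called higher and 21.5% lower. These values are in the deposited scaling, and none after quantile normalization are given for these probe sets.

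Other genes of protein synthesis did not form a single pattern with genotype, and their counts stand against 15.5% of all genes called higher and 21.5% lower in this comparison. Of 7 tested genes of translation elongation and termination, 3 were higher over 0, 8, 16 and 48 h and 0 lower: Gspt1, a release factor, by 0.37, Eef1a1, which brings aminoacyl-tRNA to the ribosome, by 0.31, and Eef2, which moves the ribosome along, by 0.17. Of 28 initiation genes, 7 were higher and 6 lower, among them Eif2b1 at 0.33 and Eif1b at 0.32, and Eif5b, which joins the subunits, at -0.54 and Eif3m at -0.28. Of 37 genes of ribosome biogenesis, 7 were higher and 7 lower, with Nip7 at 0.51, Imp4 at -0.31, Ddx21 at -0.30 and Nop2 at -0.27. Of 10 genes of mitochondrial translation and transcription, 1 was higher, Slirp at 0.20, and 4 were lower: Mterf3 at -0.44, Lrpprc at -0.32, the mitochondrial RNA polymerase Polrmt at -0.23 and Tfb2m at -0.22. Of 11 genes of growth signalling and ribosomal protein transcription, 0 were higher and 2 lower: Gabpa, the ETS factor whose letters are shown above, at -0.47 (adjusted p = 3.46e-06) and Yy1 at -0.20 (adjusted p = 0.0168). Of the mitochondrial ribosomal proteins whose symbols fall outside the rule, Dap3, of the small subunit, was lower by -0.37 (adjusted p = 0.0011).

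Markers of cell types also moved with genotype over the same arrays, in which 15.5% of all genes were called higher and 21.5% lower. Sums run over all markers of a list on the array, tested or not. Of 6 sustentacular cell and gland markers 4 were higher, with summed signals of 110509.3 to 171433.7 in SR-A mutant and 104772.7 to 140896.4 in wild type arrays. Of 8 fibroblast markers 4 were higher, with sums of 73202.3 to 143361.5 in SR-A mutant and 41932.8 to 130736.9 in wild type arrays. Of 4 tested B and plasma cell markers 3 were higher, with sums over 6 of 5651.3 to 17271.0 in SR-A mutant and 1397.6 to 14461.0 in wild type arrays. Of 6 tested basal and progenitor cell markers 4 were lower, with sums over 9 of 7095.6 to 8655.3 in SR-A mutant and 8359.2 to 9666.3 in wild type arrays, and Krt14 was at the floor of 113.7 in every one of these arrays. None of 5 mature sensory neuron markers was called. Of 10 tested macrophage markers 1 was higher and 1 lower, with sums over 14 of 19487.7 to 35441.7 in SR-A mutant and 17144.3 to 36664.5 in wild type arrays. T and natural killer cell and skeletal muscle markers did not pass the filter, with Cd3d, Cd3e, Cd3g, Cd8a and Tnnt3 at the floor throughout. Against 0 h, with 10.2% of all genes called in SR-A mutant and 15.4% in wild type tissue, 4 of 10 macrophage markers had risen at 48 h in SR-A mutant and 5 of 10 in wild type tissue. Fibroblast markers had fallen in 4 of 8 in SR-A mutant (median of the 8, -0.69) and 5 of 8 in wild type tissue (median -1.23), and 2 of 5 sensory neuron markers had fallen in each. Of 6 tested neutrophil markers, S100a8 and S100a9 had risen in wild type tissue by 2.09 and 2.01 and Camp had changed by -1.85. The other tested neutrophil markers, and the changes of this list in SR-A mutant tissue, are not given here. Over 0, 8, 16 and 48 h the sums over 10 neutrophil markers were 29251.4 to 62098.6 in SR-A mutant and 32671.5 to 74489.6 in wild type arrays. The part of these cell types in the ribosomal protein values was not tested.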

How the data were processed

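Biotin-labelled total RNA was hybridised to 30 Affymetrix arrays, 3 per genotype and time. The deposited values are signal intensity units made by the authors with MAS5, per the submitters' processing notes, whose version was not given in the sources used here. All arrays had been scaled alike, with 2% trimmed means of 1500.7 to 1500.9. Gene names came from the platform annotation, and positions and sequences from RefSeq's GRCm38.p6.

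Before log2, lower signals were raised to a floor of 113.7, the 25th percentile of all values. The 66 array controls were left out. Testing needed a signal over the median of 572 in no fewer than 3 arrays, which kept 6968 probe sets. Means of the 10 groups were fitted in limma 3.58.1 (R 4.3.3) and contrasts taken two-sided, with Benjamini-Hochberg adjustment over all tested probe sets at 0.05. Classes were described by counts and medians. Python 3.11.15, pandas 2.3.3 and numpy 2.4.6 made the summaries. The pipeline was tested on simulated data.

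Members and lists were chosen with earlier results of these data known. Named were, per contrast, up to 4 called rises and falls of each class, the 5 brightest and dimmest, the most and least variable, a fixed set including Rplp0, Rpsa and Mrpl12, up to 4 genes per list, and Msr1, Omp and Cd68. Alternatives tried were quantile normalization, median centring, no filter, a pseudocount of 16, fits of only the groups compared, a variance trend, the replicate number as a block, plain probe sets only, no SR-A mutant 2 h arrays, and each array left out. Cd68, a macrophage lysosomal protein, averaged 1753 ± 217 at 48 h and 1118 ± 73 at 0 h in SR-A mutant and 2285 ± 427 and 1291 ± 79 in wild type tissue (SD, n = 3 each). Protein sequences were not used here.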

Additional observations from a re-analysis of the deposited data

Results flagged for a closer look

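The 48 h change differed between SR-A mutant and wild type tissue, by the limma test of the difference itself, in 2 of 28 genes of translation initiation and 1 of 37 of ribosome biogenesis, beside 3.06% of all genes, so nothing is read from these counts about the lists. For Nop58, a core protein of small nucleolar ribonucleoproteins, the change in SR-A mutant minus that in wild type tissue was -0.78 ± 0.17 (adjusted p = 0.0153). For Eif6, which keeps the large subunit from joining too early, it was -0.69 ± 0.15 (adjusted p = 0.0154), and for Eif1a, a factor of start codon scanning, -0.52 ± 0.13 (adjusted p = 0.0263).

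Only members called at 2 h against 0 h in either genotype were searched for opposite moves at 2 h, and other genes were not searched. In 4 mitochondrial ribosomal protein genes among them, all arrays of one genotype rose and all of the other fell against the mean of 0 h. The change in SR-A mutant minus that in wild type tissue was 0.52 for Mrpl9, 0.80 for Mrps2, 0.86 for Mrps7 and -0.74 for Mrpl20. The difference was not tested, since the SR-A mutant 2 h arrays stand apart in their GAPDH signals.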

How the results depend on the processing

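Of 115 called differences in 49 member genes, quantile normalization kept 67, lost 43 and reversed 5: Rpl41 at 48 h (-0.054), and over 0, 8, 16 and 48 h Rps4x (-0.11), Rplp0 (-0.039), Rpl7 (-0.12) and Rps24 (-0.079). It called 13 members at 0 h, 0 at 2 h, 3 at 16 h and 6 at 48 h between genotypes. Fits of only the groups compared, with fewer samples to estimate the spread, lost 56 and called, between genotypes, 0 at 2 h, 0 at 8 h, 5 at 16 h and 1 at 48 h. Against 0 h they called 0 at 2 h, 1 at 16 h and 0 at 48 h in SR-A mutant and 1 at 2 h and 2 at 48 h in wild type tissue. Median centring lost 11, no filter 17, a pseudocount of 16 lost 1 and a variance trend 9, with 3 calls for wild type at 16 h and 1 for the genotype difference in the 48 h change. Without the SR-A mutant 2 h arrays 6 members were called between genotypes at 8 h. Plain probe sets kept 1 and lost 5 of the 6 calls in which they differ. The replicate numbers were not shown to pair arrays: correlations of same-numbered arrays were -0.35 to 0.35, and 9 of 27 arrays correlated best with their own number. With a replicate block 102 calls held and 13 were lost, and 1 member was called for wild type at 2 h.

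With 1 array left out, 987 of 1320 refitted calls held. Counts between genotypes were 11 to 19 at 0 h, 0 to 6 at 2 h, 1 to 3 at 8 h, 2 to 10 at 16 h, 5 to 12 at 48 h and 29 to 37 over 0, 8, 16 and 48 h. Against 0 h at 2, 8, 16 and 48 h they were 2 to 14, 0 to 0, 0 to 1 and 2 to 9 in SR-A mutant and 0 to 2, 0 to 0, 0 to 4 and 1 to 4 in wild type tissue. For the genotype difference in the change they were 0 to 0 at 16 h and 0 to 1 at 48 h.

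The cytosolic minus mitochondrial distance at 0, 2, 8, 16 and 48 h was, with 1 array left out, 2.98 to 3.01, 2.85 to 2.87, 2.97 to 3.05, 3.01 to 3.03 and 2.99 to 3.12 in SR-A mutant and 2.80 to 2.87, 2.81 to 2.82, 2.80 to 2.90, 2.79 to 2.81 and 2.87 to 2.96 in wild type tissue. Without the filter it was 1.19, 1.04, 1.21, 1.21 and 1.27 in SR-A mutant and 1.10, 1.01, 1.08, 1.03 and 1.15 in wild type tissue, since members near background then enter the cytosolic mean. With quantile normalization it was 2.91, 2.81 and 2.89 at 0, 2 and 16 h in SR-A mutant and 2.97, 2.88 and 2.86 in wild type tissue. Plain probe sets gave 2.89 at 2 h in SR-A mutant and 2.84 at 2 h and 2.82 at 16 h in wild type tissue.

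The number of arrays limits the precision. With no detection calls here, signals near the floor could not be told apart from background, and saturation of the brightest cytosolic probe sets could not be checked.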

Other observations

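Factors that build ribosomes were also measured at 48 h in SR-A mutant against wild type tissue. Of 37 tested genes of ribosome biogenesis 5 were lower and 2 higher, against 16.3% of all genes called in either direction: Nop58 differed by -0.87 (adjusted p = 3.94e-05), Gnl3, a nucleolar GTPase, by -0.74, the helicase Ddx21 by -0.55, Gar1, of the pseudouridine-forming particles, by -0.54 and Pes1 by -0.41, while Polr1b, a subunit of RNA polymerase I, differed by 0.44 and Nop10 by 0.31. Of 28 initiation genes 6 were lower and 2 higher. These lists were chosen with earlier results known, and the numbers are a description.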
